A study of Saccharomyces cerevisiae with 9 samples.

Results

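The general stress genes described here are HSP30, HSP31, HSP12, DDR2, HOR7, DDR48, GRE3, XBP1, MSN2 and MSN4 of the yeast Saccharomyces cerevisiae. They were taken by name, as the probe sets whose only annotated gene is one of these, and they make up 10 of the 5449 yeast genes measured. Each was read by 1 probe set. All 10 lay above the background limit of 5.64 on the log2 scale, as did 5332 of the 5449 genes. The study hybridised total RNA of 3 strains to 9 Affymetrix yeast arrays, 3 per strain. D126 is a recombinant strain that expresses a pair of fatty acid desaturases of the fungus Mucor rouxii, the D12 and the D6 enzyme. D12 expresses the D12 enzyme alone, and REF is the reference strain. All 3 strains grew in chemostats limited by glucose, with a dilution rate set to 0.1 per h, and were sampled after a steady state of 5 or more residence times. The labels used here give no promoter, plasmid or marker for the desaturase genes, no parental genotype or mating type, and no statement on whether the 3 arrays of a strain come from separate cultures. The p-values therefore rest on the spread among these arrays, which may be technical.

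Yeast cells that meet heat, oxidants, osmotic stress or a shortage of glucose switch on a shared set of protective genes. The related zinc-finger factors Msn2 and Msn4 move into the nucleus when protein kinase A activity is low and bind stress response elements in the promoters of these genes. In glucose-limited chemostats at a low growth rate, many of these genes are known to stand at a high level. HSP30 belongs to the wider stress response, but its induction has been described as needing neither Msn2 and Msn4 nor the heat shock factor Hsf1. A D12-desaturase makes linoleic acid from oleic acid, and a D6-desaturase makes gamma-linolenic acid from linoleic acid.

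Values are the authors' log2 expression values. A difference is a log2 change from a limma fit of all 9 arrays, and a gene is called when its Benjamini-Hochberg adjusted p over the 5449 genes is under 0.05. In D126 compared with REF, 8 of the 10 stress genes fell and 0 rose, where 21.5% of all genes were called, 12.9% lower and 8.59% higher. The median change of the 10 genes was -0.18, against 0.00 over all genes. These 10 genes were chosen with earlier results of these data known. HSP30 and HSP31 fell most, to 56.9% and 69.4% of their REF levels, and the other 6 called genes fell to between 84.3% and 93.7%. HOR7 and MSN4 were not called. In these samples of whole cultures, a lower share of cells with a transcript and less transcript per cell cannot be told apart.

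**Figure D1:**
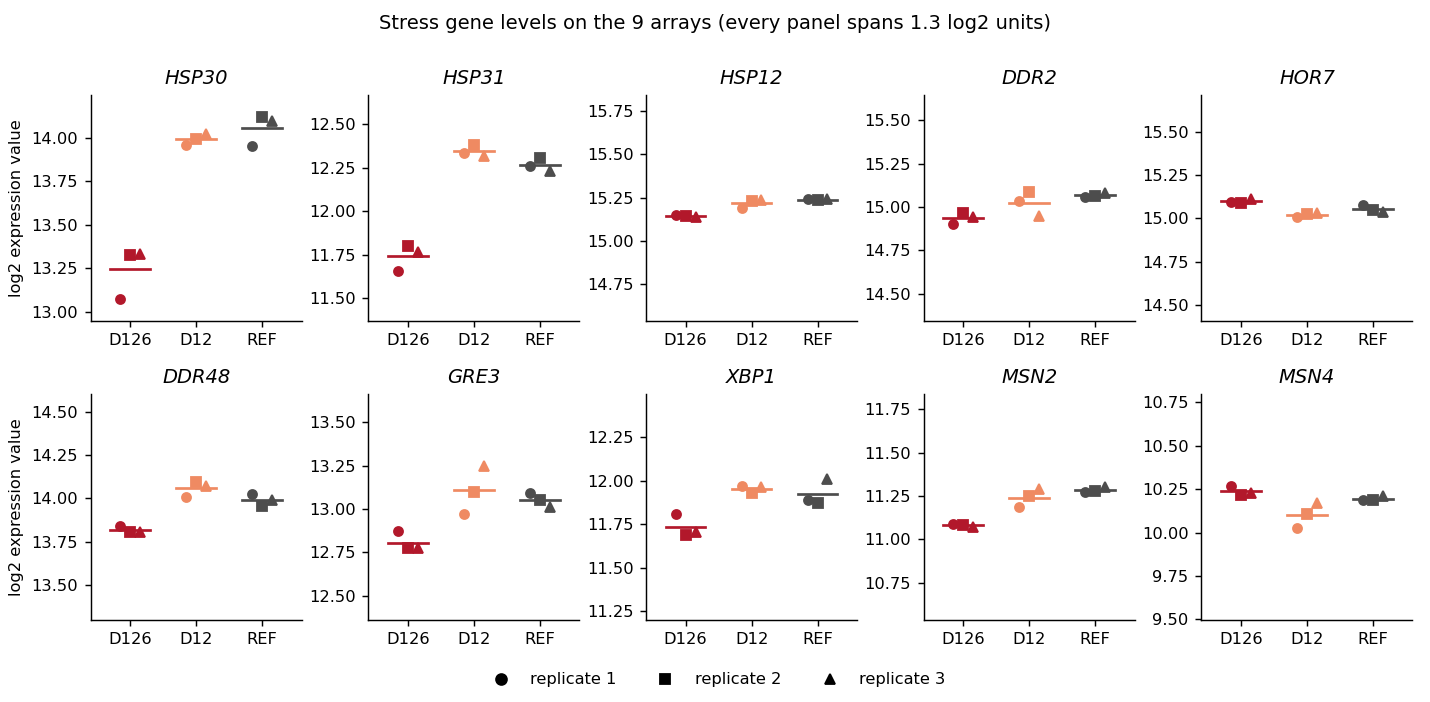
Log2 expression value (vertical axis) of each stress gene on every array of D126, D12 and REF (horizontal axis), with the strain mean as a bar. All panels span 1.3 log2 units: HSP30 and HSP31 show a wide step between D126 and the other strains, the remaining genes a narrow one or none.

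HSP30 encodes a seven-helix plasma membrane protein that restrains the proton pump Pma1 during stress. It stood at 13.07, 13.33 and 13.33 in D126, at 13.96, 14.00 and 14.03 in D12, and at 13.95, 14.12 and 14.10 in REF. The highest D126 array lay well below the lowest array of either other strain, and D126 replicate 1 lay apart from the other D126 arrays. The log2 change of D126 from REF was -0.81 (SE 0.07, 95% interval -0.98 to -0.65, adjusted p = 0.000212 by limma). Only 20 of the 5449 genes had a change further below 0. Its call held under all 20 alternative settings, with changes of -0.87 to -0.73. Leaving out a D12 array, the replicate blocks, the background filter and the probe set settings left the change at -0.81. Under these, only its p-value could move.

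HSP31 encodes a chaperone of the DJ-1 family that also acts as a glyoxalase on methylglyoxal, a toxic by-product of glycolysis. Its values were 11.66, 11.80 and 11.76 in D126, 12.34, 12.38 and 12.32 in D12, and 12.26, 12.31 and 12.23 in REF. Again the D126 arrays were clear of all others, while D12 lay slightly above REF on every array. The change of D126 from REF was -0.53 (SE 0.04, interval -0.63 to -0.43, adjusted p = 0.000172 by limma), and 78 genes had a change further below 0. No alternative ended this call (changes of -0.56 to -0.49).

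HSP12, DDR2 and HOR7 encode small proteins, and their probe sets sat close to the top of the scale, where the highest values on the arrays were 15.47 to 15.51. Hsp12 is a membrane-associated protein that stabilises the lipid bilayer under stress. Its gene stood at 15.15, 15.14 and 15.14 in D126, at 15.19, 15.23 and 15.24 in D12, and at 15.24, 15.23 and 15.24 in REF. The replicates of D126 and of REF were nearly identical, and a change of -0.09 (SE 0.03) was called against REF with an adjusted p of 0.0441 by limma. That call was lost without any D126 array, any REF array or D12 replicate 2 (adjusted p = 0.0555 to 0.129), with quantile normalization (change -0.02, adjusted p = 0.67) and with each array centred on its median (0.0503). With the replicate number as a block it was also lost (0.0932 over 9 arrays and 0.0584 over the 6 arrays of D126 and REF). Whether RMA values compress changes at this end of the scale was not tested.

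DDR2 is induced by DNA damage and many other stresses, and HOR7, induced by high osmolarity, is its paralogue. DDR2 stood at 14.90, 14.97 and 14.94 in D126, at 15.03, 15.08 and 14.95 in D12, and at 15.06, 15.06 and 15.08 in REF. Its 3 D126 arrays lay below all REF arrays but overlapped the D12 arrays through D12 replicate 3. The change from REF was -0.13 (SE 0.04, adjusted p = 0.0421 by limma), and this call was lost without any D126 array, any REF array or D12 replicate 1 (0.0505 to 0.119). Quantile normalization (0.0661), centring (0.0638) and the block over 9 arrays (0.0699) ended it as well. HOR7 stood at 15.10, 15.09 and 15.11 in D126, at 15.01, 15.03 and 15.03 in D12, and at 15.08, 15.05 and 15.04 in REF. Every D126 array lay above all other arrays for HOR7, yet the change from REF was 0.05 (interval -0.02 to 0.11, adjusted p = 0.282 by limma). Whether the changes of DDR2 and HOR7 differ was not tested.

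DDR48, another DNA damage-responsive gene, encodes a hydrophilic stress protein. It stood at 13.84, 13.80 and 13.81 in D126, at 14.01, 14.10 and 14.07 in D12, and at 14.03, 13.96 and 13.99 in REF. All D126 arrays lay under all other arrays. The change from REF was -0.18 (SE 0.04, adjusted p = 0.00876 by limma), and it was called under every alternative tried.

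GRE3 encodes an NADPH-dependent aldose reductase that reduces methylglyoxal and xylose. Its levels were 12.87, 12.77 and 12.77 in D126, 12.97, 13.10 and 13.25 in D12, and 13.09, 13.05 and 13.01 in REF. D126 was again lowest without overlap, and the D12 arrays were spread more widely (SD 0.14) than those of D126 (SD 0.06) or REF (SD 0.04). GRE3 changed by -0.25 from REF (SE 0.06, adjusted p = 0.0268 by limma). The call was lost without D126 replicates 2 or 3 or any REF array (0.0526 to 0.0889) and with the block over 9 arrays (0.0606).

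XBP1 encodes a stress-induced repressor whose DNA-binding domain resembles those of the cell cycle factors Swi4 and Mbp1. It stood at 11.81, 11.69 and 11.70 in D126, at 11.97, 11.93 and 11.96 in D12, and at 11.89, 11.87 and 12.01 in REF. The gap between D126 replicate 1 and the nearest REF array was small, although the groups did not overlap. The change from REF was -0.19 (SE 0.05, adjusted p = 0.021 by limma), and it was not called without D126 replicate 2, D126 replicate 3 or REF replicate 3 (0.069 to 0.0786).

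The genes of the 2 paralogous regulators come last. MSN2, which is described as expressed at a steady level, stood at 11.09, 11.08 and 11.07 in D126, at 11.18, 11.25 and 11.29 in D12, and at 11.27, 11.28 and 11.30 in REF, with all D126 arrays lowest. It changed by -0.20 from REF (SE 0.03, adjusted p = 0.00347 by limma), a call kept under every alternative. MSN4, whose own transcription is stress-inducible, stood at 10.27, 10.22 and 10.23 in D126, at 10.03, 10.11 and 10.17 in D12, and at 10.19, 10.19 and 10.21 in REF. Every D126 array lay above all other arrays, narrowly so for REF, and the mean of D126 was 0.04 over that of REF (interval -0.05 to 0.13, adjusted p = 0.48 by limma). Whether the changes of MSN2 and MSN4 differ was not tested.

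For all 10 genes the D126 and REF arrays did not overlap, 8 with D126 lower and 2 with D126 higher. The same held for 47.9% of all genes (25.7% with D126 lower and 22.2% with D126 higher), so this separation is common in the comparison. A change below 0 was found for 8 of the 10 and for 51.4% of all genes. With the replicate number as a block, 5 of the 10 genes were called over 9 arrays (DDR48, HSP30, HSP31, MSN2 and XBP1) and 7 over the 6 arrays of both strains. With all non-control probe sets tested, the calls of HSP12, DDR2, GRE3 and XBP1 were lost. HSP30, HSP31, DDR48 and MSN2 were the genes called under each of the 20 alternatives.

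Adding the D6-desaturase was examined by setting D126 against D12, a comparison that uses the same D126 arrays. HSP31 and HSP30 again showed the widest differences, and here MSN4 was called higher. Of the 10 genes, 6 fell and 1 rose, where 22.0% of all genes were called, 14.7% lower and 7.32% higher (801 and 399 genes, 637 and 577 with quantile normalization, 703 and 536 with each array centred on its median). The median change of the 10 genes was -0.19, against -0.02 over all genes. The arrays of the strains did not overlap for 9 of the 10, 7 with D126 lower and 2 with D126 higher, where this held for 38.4% of all genes (23.8% lower and 14.7% higher). A change below 0 was found for 8 of the 10 and for 56.3% of all genes.

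Relative to D12, HSP31 changed by -0.61 (SE 0.04, adjusted p = 7.77e-05 by limma) and HSP30 by -0.75 (SE 0.07, adjusted p = 0.000286), which leaves 65.7% and 59.5% of the D12 level. GRE3 changed by -0.30 (SE 0.06), DDR48 by -0.24 (SE 0.04), XBP1 by -0.22 (SE 0.05) and MSN2 by -0.16 (SE 0.03), with adjusted p of 0.0116, 0.00218, 0.0116 and 0.0112. These 6 calls held without each array in turn, but with the replicate block over the 6 arrays of D126 and D12 those of DDR48 (0.0505), GRE3 (0.0831), XBP1 (0.0563) and MSN2 (0.122) were lost. MSN4 rose by 0.14 (SE 0.04, adjusted p = 0.0368), but this call was lost when any 1 array except D12 replicate 3 was left out (0.0549 to 0.101). DDR2 and HSP12 differed by -0.09 (interval -0.17 to 0.00, adjusted p = 0.149) and -0.07 (interval -0.14 to -0.01, adjusted p = 0.0983). HOR7 differed by 0.08 (interval 0.01 to 0.14, adjusted p = 0.0794). Without D12 replicate 3, the lowest D12 array for this gene, DDR2 was called (adjusted p = 0.0327). With all non-control probe sets tested, the calls of MSN2 (0.0564) and MSN4 (0.132) were lost, and with array weights all 10 genes were called.

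Expression of the D12-desaturase alone was examined by setting D12 against REF. Limma called 0 of the 10 genes, as it called 0% of all genes. At an unadjusted p under 0.05, limma passed 1 of the 10, MSN4, where 5.98% of all genes passed. The adjusted p of MSN4 by limma was 0.817. All alternatives, array weights and the moderation with trend and robust settings included, also called 0 of the 10. The changes ran from -0.10 for MSN4 (interval -0.19 to -0.01) to 0.08 for HSP31 (interval -0.02 to 0.18). For HSP30 the change was -0.07 with an interval of -0.23 to 0.10, and for HSP31, DDR48, GRE3 and XBP1 it lay above 0. The strains did not overlap for HSP31, where D12 was higher, and for MSN4 and HOR7, where D12 was lower, against 10.2% of all genes (3.96% with D12 lower and 6.20% with D12 higher). A change below 0 was found for 6 of the 10 and for 40.3% of all genes.

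**Figure D2:**
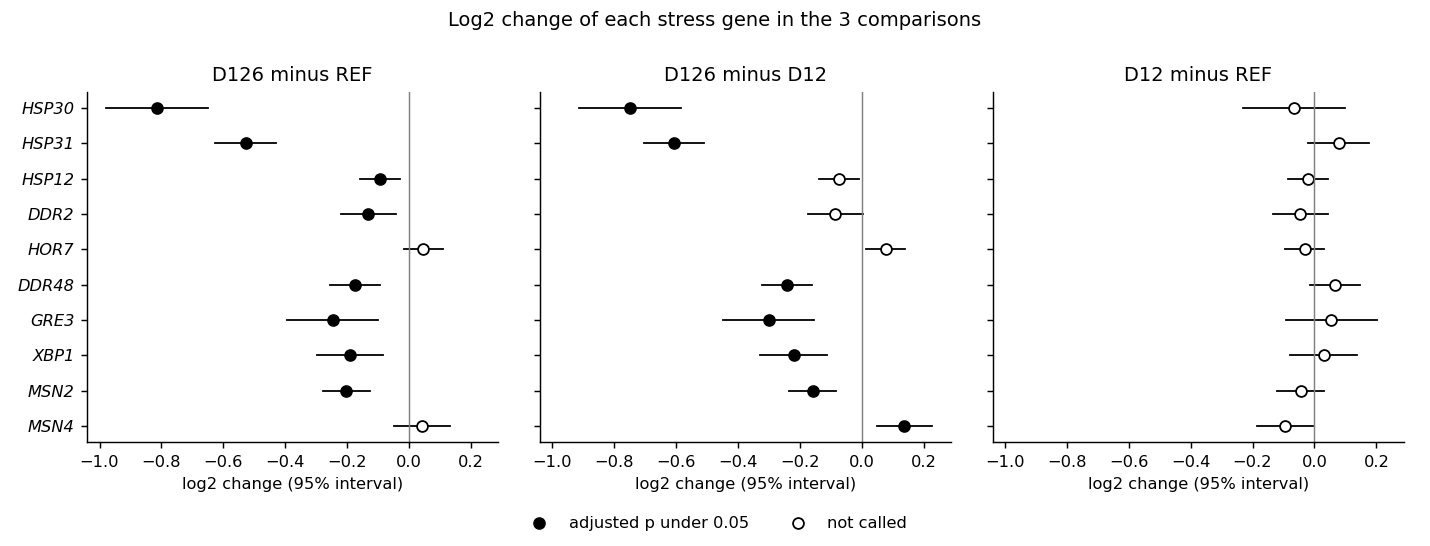
Log2 change (horizontal axis) with its 95% interval for each stress gene in the 3 comparisons. Filled points passed the adjusted p of 0.05; 8 genes did so for D126 against REF, 7 for D126 against D12 and 0 for D12 against REF.

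The other genes of the pathway came from lists of known targets and regulators, which were drawn up with earlier results of these data known. Of 44 other target genes of Msn2 and Msn4, 29 fell and 0 rose in D126 relative to REF, where 12.9% of all genes were called lower and 8.59% higher. A change below 0 was found for 43 of them and for 51.4% of all genes. The median of this list was -0.25, against 0.00 over all genes. Leaving out 1 array moved its number of called genes between 24 and 31, all of them lower. Relative to D12, 28 of the 44 fell and 0 rose, where 14.7% of all genes were called lower and 7.32% higher, and the list's median was -0.24. Between D12 and REF limma called 0 (1 at an unadjusted p under 0.05), with a median of 0.00.

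CTT1, the cytosolic catalase gene, stood at 10.68, 10.79 and 10.81 in D126, at 11.35, 11.53 and 11.60 in D12, and at 11.68, 11.41 and 11.43 in REF. Its change from REF was -0.74 (SE 0.08, adjusted p = 0.000547). RTN2, a reticulon-like gene of the endoplasmic reticulum, changed by -0.73 from REF and by -0.71 from D12, the smallest adjusted p of the list (5.88e-05 against REF). GRE2, a methylglyoxal reductase gene, changed by -0.59 and -0.63 from REF and D12, and GRE1, a hydrophilin gene, by -0.57 and -0.56. The transketolase gene TKL2 and the 6-phosphogluconolactonase gene SOL4 encode stress-induced isoenzymes of the pentose phosphate pathway. They changed by -0.55 and -0.42 from REF. SSA3, an inducible cytosolic Hsp70, stood at 14.03 ± 0.10 in D126, 14.51 ± 0.06 in D12 and 14.56 ± 0.04 in REF (SD, n = 3 each), a change of -0.53 from REF. ALD2, an aldehyde dehydrogenase gene, changed by -0.40 from REF. All 8 were called in both comparisons without each array in turn.

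The other 15 targets were not called against REF. Outside the naming rule, GPH1, the glycogen phosphorylase gene, was the target with a change above 0 relative to REF (0.13, SE 0.09, adjusted p = 0.354). The abundant chaperone genes HSP26 and HSP104 were also chosen after their values were seen. HSP26, another probe set near the top of the scale, stood at 15.32 ± 0.0036 in D126, 15.36 ± 0.0019 in D12 and 15.37 ± 0.0077 in REF, and HSP104 at 14.20 ± 0.03, 14.24 ± 0.05 and 14.26 ± 0.0024 in the same strains (SD, n = 3 each). Neither was called against REF, with adjusted p of 0.216 and 0.223.

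Regulators upstream of Msn2 and Msn4 formed another list. Of 33 measured regulators, 8 fell and 2 rose in D126 relative to REF, where 12.9% of all genes were called lower and 8.59% higher, and the list's median was -0.06. IRA2, a GTPase-activating protein that switches Ras off, stood at 12.93 ± 0.04 in D126, 13.31 ± 0.13 in D12 and 13.25 ± 0.02 in REF (SD, n = 3 each), a change of -0.32 from REF (adjusted p = 0.00525). BCY1, the regulatory subunit of protein kinase A, changed by -0.23 from REF (adjusted p = 0.00304) and TPK2, one of its catalytic subunits, by -0.27 (adjusted p = 0.00135). RIM15, a kinase that promotes the stress response when protein kinase A is low, changed by -0.24 (adjusted p = 0.0118). The 2 genes that rose were both of the osmotic stress pathway and are named here after their values were seen. HOG1, its MAP kinase, changed by 0.19 from REF (adjusted p = 0.00866) and by 0.28 from D12 (adjusted p = 0.0015). SSK1, a response regulator upstream of Hog1, changed by 0.13 from REF (adjusted p = 0.0484), a call lost without any D126 or REF array (0.0666 to 0.149) and with the replicate block (0.0996 over 9 arrays and 0.0501 over 6). Relative to D12, 8 regulators fell and 1 rose, where 14.7% of all genes were called lower and 7.32% higher, and between D12 and REF limma called 0 (3 at an unadjusted p under 0.05).

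Chaperone genes driven by Hsf1, listed together with the HSF1 gene itself, gave a second point of reference. Of 20, 6 fell and 1 rose in D126 relative to REF, where 12.9% of all genes were called lower and 8.59% higher. HSF1, named outside the rule, was among the 6 that fell (adjusted p = 0.025 by limma). Its call was lost without D126 replicates 2 or 3 or any REF array (0.057 to 0.0906). The list's median was -0.07, with changes of -0.18 to 0.14. The heat shock genes HSP26, HSP42, HSP78, HSP104, SSA3 and SSA4 were counted in the target list and not here. Of them, SSA3, SSA4 and HSP42 were called lower against REF (adjusted p = 0.000333, 0.0101 and 0.000606 by limma). HSP26, HSP78 and HSP104 were not called. How far the median depends on this placing was not tested. FES1, a nucleotide exchange factor of Hsp70, changed by -0.18, STI1, a co-chaperone of Hsp70 and Hsp90, by -0.16, and AHA1, an activator of Hsp90, by -0.14, while the Hsp70 gene SSA2 rose by 0.14. Of these 4, STI1 kept its call against REF without each array in turn. FES1 lost its call without D126 replicate 1, REF replicate 2 or REF replicate 3 (adjusted p = 0.0541 to 0.0678). AHA1 and SSA2 lost theirs without D126 replicate 3, REF replicate 2 or REF replicate 3 (0.052 to 0.06 and 0.0556 to 0.0674). Relative to D12, 4 of the 20 fell and 2 rose, where 14.7% of all genes were called lower and 7.32% higher. There STI1 and AHA1 lost their calls without D126 replicate 3 (adjusted p = 0.0666 and 0.0657 by limma). FES1 lost its call without any 1 array except D12 replicate 1 (0.0635 to 0.13), while SSA2 kept its call without each array in turn.

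**Figure D3:**
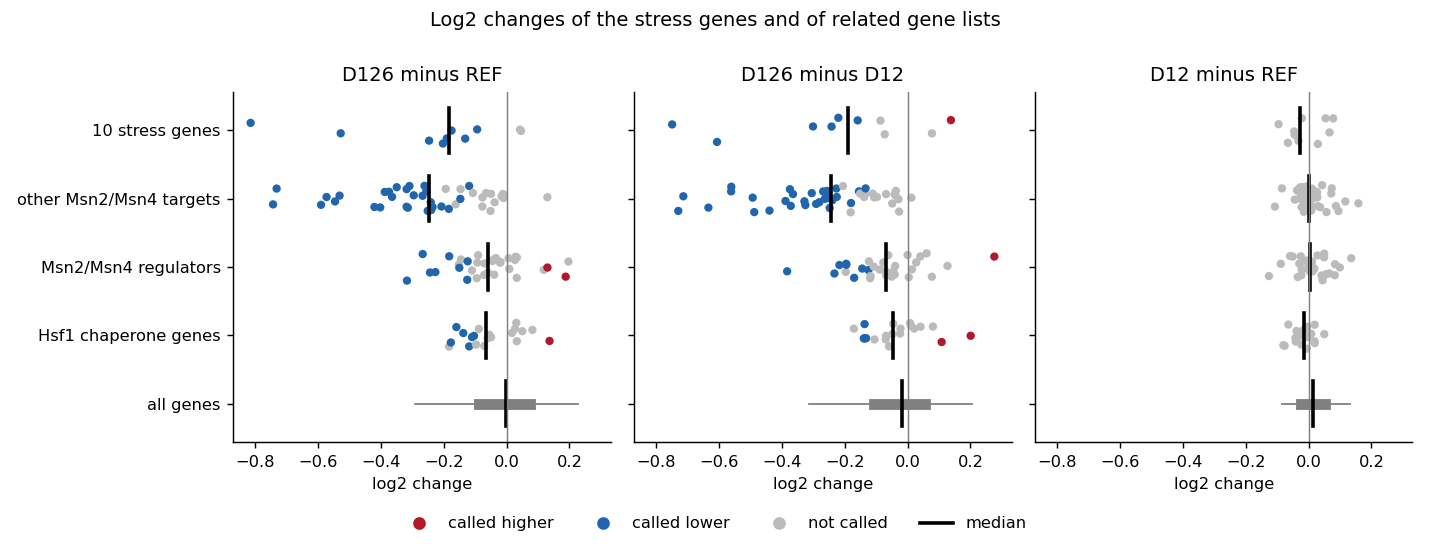
Log2 change (horizontal axis) of each gene in the stress gene set and in 3 related lists, with list medians as black bars (blue called lower, red called higher, grey not called); for all genes the thick bar spans the 25th to 75th and the thin line the 5th to 95th percentile. The points of the 44 other targets lie mostly left of 0 in both comparisons with D126 and around 0 for D12 minus REF.

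Relatives of the individual stress genes were examined as well. Of 9 genes related to HSP30 or to the plasma membrane functions it touches, 2 fell and 2 rose in D126 relative to REF, where 12.9% of all genes were called lower and 8.59% higher. YRO2, a membrane protein gene of the HSP30 family, stood at 13.56, 13.86 and 13.77 in D126, at 14.14, 14.27 and 14.17 in D12, and at 14.24, 14.32 and 14.28 in REF (change from REF -0.55, adjusted p = 0.000903). MRH1, the third gene of this family, is named outside the rule, as is PMA1. MRH1 differed by 0.05 (SE 0.05, adjusted p = 0.531). PMA2, the minor isoform of the proton pump, changed by -0.67 (adjusted p = 0.000365), and PMA1, the main pump, differed by 0.10 (SE 0.07, adjusted p = 0.359). PDR12, a transporter that exports weak organic acids, rose: it stood at 14.12, 13.99 and 14.07 in D126, at 13.65, 13.61 and 13.64 in D12, and at 13.68, 13.45 and 13.44 in REF (change from REF 0.53, adjusted p = 0.000706). HAA1, an activator of the weak acid response, rose by 0.12 from REF (adjusted p = 0.0472), a call lost without any D126 array, any REF array or D12 replicate 2 (0.0614 to 0.163) and with the block over 9 arrays (0.0587).

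Among 4 measured relatives and metabolic partners of HSP31, 2 fell in D126 relative to REF and 0 rose, where 12.9% of all genes were called lower and 8.59% higher. SNO4, a DJ-1 family gene like HSP31, changed by -0.88 from REF and by -0.94 from D12 (adjusted p = 0.000212 and 0.000142), but its probe set is of a kind that the array's naming marks as shared with similar transcripts, so its value may mix family members. GLO1, the glyoxalase I gene, changed by -0.19 from REF (adjusted p = 0.0162), a call lost without D126 replicates 1 or 3 or REF replicates 2 or 3 (0.0519 to 0.0652). Of 6 measured aldo-keto reductase and polyol dehydrogenase genes related to GRE3 in sequence or substrate, of which GCY1 is also in the target list, 5 fell and 0 rose, against the same shares over all genes. They include the reductase gene YJR096W (-0.47), the xylitol dehydrogenase gene XYL2 (-0.37), YPR1 (-0.35) and YDL124W (-0.17), with adjusted p of 0.000448, 0.000313, 0.000969 and 0.00656 against REF.

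Of 8 genes chosen around XBP1, 4 rose in D126 relative to REF and 0 fell, where 8.59% of all genes were called higher and 12.9% lower. XBP1 is known to repress G1 cyclin genes, and the 3 cyclin genes of the list were among those that rose. CLN1 stood at 10.58, 10.54 and 10.60 in D126, at 10.25, 10.19 and 10.32 in D12, and at 10.33, 10.11 and 10.14 in REF (change from REF 0.38, adjusted p = 0.00261). CLN2 changed by 0.31 and CLN3 by 0.36 from REF (adjusted p = 0.00113 and 0.00933). PHD1, a transcription factor of filamentous growth, changed by 0.48 (adjusted p = 0.00189). The Xbp1 relatives SWI4 and MBP1, named outside the rule after their values were seen, were not called, with changes of 0.04 and 0.11 from REF. Relative to D12, 3 of the 8 rose and 1 fell, where 7.32% of all genes were called higher and 14.7% lower. The gene that fell was SOK2, a relative of PHD1 named outside the rule (change from D12 -0.19, adjusted p = 0.011), and CLN3 was not called there (0.14, adjusted p = 0.194). No link between these genes and XBP1 was tested.

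The genes outside the set that ran closest to HSP30 were found by the root mean square difference over the 9 arrays, after subtracting each gene's REF mean. They were HEF3 (0.07 log2 units), a stress- and zinc-responsive isoform of translation elongation factor 3, the uncharacterised gene YKL107W (0.08), THI4 of thiamine synthesis (0.08), SHH3 (0.09), a homologue of a succinate dehydrogenase subunit, and MCH2 (0.09), which resembles monocarboxylate permeases. HEF3 stood at 11.85, 12.16 and 12.05 in D126, at 12.79, 12.92 and 12.87 in D12, and at 12.83, 12.86 and 12.87 in REF. Like HSP30, HEF3, YKL107W, THI4, SHH3 and MCH2 were all lowest on D126 replicate 1. They were chosen by likeness on the same 9 arrays, so this shared low array follows in part from the choice. Only 7 genes lay within 0.1 log2 units of HSP30 by this measure, whereas 2815 lay that close to HSP12, whose profile is nearly flat. The nearest to HSP12 were BMH2, a 14-3-3 protein gene that is also in the regulator list, NAM7, TAF12, SOL2 and YBR062C, at 0.01 to 0.02 log2 units.

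**Figure D4:**
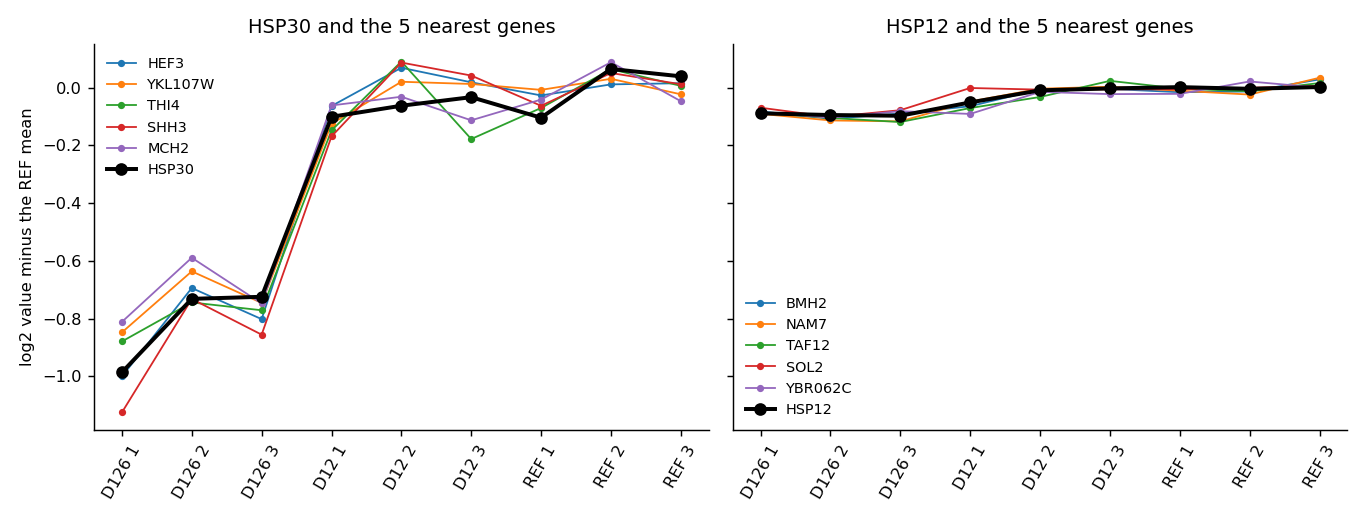
Log2 value minus the gene's REF mean (vertical axis) on each array (horizontal axis) for HSP30 and HSP12 in black and the 5 genes nearest to each in colour. HSP30 and its neighbours, which were chosen by likeness on these arrays, are lower on the 3 D126 arrays. HSP12 and its neighbours stay within about 0.1 of their REF mean.

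Several other features of the arrays moved with D126. Of 10 control transcripts with probe sets at both ends, ACT1 had a 3′ minus 5′ difference of 0.37 to 0.38 in D126, above all arrays of D12 (0.33 to 0.34) and REF (0.32 to 0.35), and for 18S rRNA and URA3 the D126 differences lay below those of all other arrays. D126 replicates 2 and 3 were the most alike of any pair within a strain (SD of their difference 0.06, against 0.08 to 0.17 for the other pairs). Counted as 1 sample, they left 4 of the 10 genes called against REF (DDR48, HSP30, HSP31 and MSN2). Markers of MATa cells, of which all 7 lay above the background limit, averaged 11.71 to 11.74 on the D126 arrays, 11.31 to 11.41 on the D12 arrays and 11.23 to 11.37 on the REF arrays. Of these 7, 6 rose and 0 fell in D126 relative to REF, where 8.59% of all genes were called higher and 12.9% lower. The 4 markers of MATalpha cells averaged 7.93 to 8.03, 7.92 to 8.09 and 7.87 to 7.92 on the arrays of D126, D12 and REF. Those of sporulating cells, 7 genes, averaged 7.56 to 7.58, 7.58 to 8.001 and 7.58 to 7.69. Every marker of these lists lay above the background limit, as did 5332 of the 5449 genes measured. Against REF, 1 of the 4 MATalpha markers rose and 0 fell (changes of -0.16 to 0.52). Among the 7 sporulation markers 1 rose and 1 fell (changes of -0.60 to 0.57). The part of these features in the lower stress gene values was not tested.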

How the data were processed

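Total RNA from 9 chemostat samples was hybridised to Affymetrix yeast arrays. The deposited values are on a log2 scale. Per the submitters' processing notes the authors used affy and RMA; the sources used here give no version and no probe masking. RMA equalises the arrays' probe distributions before it summarises them, so a change in total RNA per cell cannot be seen. Of 10928 probe sets, 5498 matched 5449 S. cerevisiae genes by gene identifier in the R64 table; the brightest probe set per gene was used. The background limit is the 95th percentile of the means of 1746 probe sets of other genes.

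Strain differences were fitted over 9 arrays with limma 3.58.1 in R 4.3.3 (strain as the only term, 6 residual and 3.10 prior degrees of freedom), with Benjamini-Hochberg adjustment over all genes. On simulated data for D126 minus REF, 200 of 5449 genes were changed. Of genes changed by 0.2, 43.3% were recovered, against 92.5% of those changed by 0.4 and 98.5% of those changed by 0.8. The real comparison called 1173 genes, and recovery with that many changed genes was not simulated. The number of arrays limits the precision (median SE 0.05).

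Same-numbered D126 and REF arrays deviated together from their strain means (correlations 0.13 to 0.22, against -0.23 to 0.05 for other numbers). The labels do not say what a number marks, so this pairing comes from the data. D12 showed no such pairing: its same-numbered correlations with D126 and REF were -0.34 to -0.02. Those for other numbers were -0.14 to 0.24 with D126 and -0.19 to 0.30 with REF, so values this high also occurred without a shared number. Deviations within a strain sum to 0, which ties these correlations to each other.

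The stress genes, the 10 other gene lists and the tests were chosen with earlier results of these data known. The naming rule takes all 10 stress genes, up to 8 called genes of the target list and up to 4 of each other list by size of change from REF, and the 5 nearest genes to HSP30 and HSP12. SDC25, HSP32, HSP33 and SOR1 were not analysed here. Alternatives covered scaling, filters, probe sets, weights, the variance prior, the block and leaving out each array. Averaging D126 replicates 2 and 3 was added after seeing the data.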

Additional observations from a re-analysis of the deposited data

How the results depend on the processing

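Over 20 alternatives and the 3 comparisons, 536 of 600 single-gene results kept their direction and side of the threshold, 56 lost a call, 7 gained one, and 1 reversed: GRE3 in D12 minus REF ranged from -0.0175 (without D12 replicate 3) to 0.121 (without D12 replicate 1) around 0.0543. Only a gene called in the main fit could lose a call, and D12 minus REF had 0. All 56 losses therefore fell on calls of D126 minus REF or D126 minus D12, and the share of 536 in 600 overstates how stable those calls were. The replicate blocks and the background filter could not move a change of these 10 genes, so they tested the calls alone. HSP12 against REF and MSN4 against D12 each lost theirs under 13 of 20 alternatives, HSP30 and HSP31 under 0. Of the 10 stress genes, 8 were called in D126 minus REF. The count was 4 with all non-control probe sets tested, 5 over 9 arrays with the replicate block, 4 with D126 replicates 2 and 3 averaged, and 4 to 8 with 1 array left out. For D126 minus D12 it was 7, and 6 to 8 with 1 array left out; with the replicate block over the 6 arrays of both strains it was 2, and the count of other targets 16 instead of 28. Calls over all genes in D126 minus REF numbered 1173, against 630 with all non-control probe sets, 2615 with array weights and 645 to 1539 with 1 array left out (645 without REF replicate 2, 698 without D126 replicate 3, 755 without REF replicate 3). In D126 minus D12 they numbered 1200, against 655 and 2057 under the same settings, 780 with the 6 arrays of both strains alone, 398 with the block added, 760 with D126 replicates 2 and 3 averaged and 683 to 1332 with 1 array left out (683 without D126 replicate 3). In D12 minus REF they numbered 0, against 1 with array weights and 0 to 1 with 1 array left out. Testing all non-control probe sets changed both the number of tests and the probe sets behind the variance prior. The part of each, and the cause of the other shifts, was not tested. Same-numbered D12 arrays share only a number. The block changed no other call among the 10 genes of D126 minus REF than those given.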

Other observations

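On the 3 D126 arrays the stress genes did not deviate from their strain means in one direction. On replicate 1 HSP30 lay 0.17, HSP31 0.08 and DDR2 0.03 log2 units under the D126 mean. XBP1 lay 0.08, GRE3 0.06, MSN4 0.03 and DDR48 0.02 log2 units over it on the same array.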
